A study of Mus musculus with 12 samples.

Results

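Protocadherins are the largest branch of the cadherin family of calcium-dependent adhesion proteins. Most lie in tandem clusters, while the non-clustered genes lie outside these clusters and are used in distinct sets by different brain cells. RNA of 8 non-clustered protocadherin genes, Pcdh1, Pcdh7, Pcdh9, Pcdh10, Pcdh15, Pcdh17, Pcdh19 and Pcdh20, was examined among the 14107 genes of a table of estimated counts from mouse O4+ cells. The 8 genes were picked by symbol, with the results of the same comparison already known, so that their differences between the groups are given as a description. Where members are counted as called by the test over all genes, this describes them and is no independent test of their difference. The O4 antibody binds sulfated lipids on late oligodendrocyte precursors and immature oligodendrocytes, the glia that go on to make myelin. Of the members, Pcdh15 is widely used as a marker of the precursor in mouse brain.

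Libraries came from 5 Chd7iKO and 7 Control samples. Chd7iKO pups had the genotype PDGFRaCre; Chd7flox/flox, with a Cre driven by the promoter of a gene that marks precursors, and Control pups were Chd7flox/flox littermates with no Cre named. Both alleles of Chd7, which encodes a chromatin remodeller that uses ATP, were thus floxed in both groups. All pups were given tamoxifen (20 mg/ml) subcutaneously, with 40 µl at P1 and 30 µl at P4 (P, postnatal day), and O4+ cells were taken from cortex and corpus callosum at postnatal day 7. A group with Cre and unfloxed Chd7 is not among the labels, so that Cre and the loss of Chd7 cannot be told apart. The sources used here do not say how many pups stand behind a library, and p-values then measure only the spread between these samples, which may be technical.

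Each library held 30384507 (Chd7iKO 3) to 35512310 (Control 6) estimated counts, and each member had at least 1014 counts in every library. Chd7 itself had 242 ± 28.9 CPM in Chd7iKO and 236 ± 30.9 CPM in Control libraries (SD, n = 5 and 7), a difference smaller than the spread. CPM are counts scaled to a common library total, after TMM scaling. Reads were summed over the whole gene, so that this level does not check the deletion. Markers of the precursor and of myelin were present in all libraries, and the summed precursor markers stood at 15600 to 17100 CPM in Chd7iKO and 18100 to 21200 CPM in Control libraries. Controls 3 and 6 stood apart by Esr1, the estrogen receptor gene. Esr1 was at 138 to 171 CPM in the Chd7iKO libraries, at 81.7 and 44.7 CPM in Controls 3 and 6, and at 0.532 to 1.26 CPM in the other 5 Controls. The source of these Esr1 counts was not tested. Because Controls 3 and 6 shared raised Esr1 with the Chd7iKO libraries, it is in doubt whether they have the genotype on their label. They stay in the Control means and ranges, which hold for the libraries labelled Control, and the members' fold changes are also given without them.

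The members fall into classes by the part of the protein inside the cell. Pcdh1, Pcdh7 and Pcdh9 are delta-1 protocadherins, whose tail holds a motif that binds protein phosphatase 1. Pcdh10, Pcdh17 and Pcdh19 are delta-2 protocadherins, whose tail can recruit the WAVE complex, a regulator of branched actin. Pcdh15 is an atypical member that pairs with cadherin 23 in the tip links of hair cells of the inner ear. Pcdh20 is placed in neither class here.

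The windows before the starts of Pcdh20, Pcdh19, Pcdh17 and Pcdh10 are shown because these members span the difference between CG-poor and CG-rich starts, and because Pcdh20 and Pcdh19 were the members with the largest fold changes between the groups while Pcdh10 had the smallest among the lower ones. Each is the 250 bases upstream of the RefSeq start on build GRCm38.p6, 5′ to 3′ on the strand of the gene. Capitals mark the box CCAAT, the GC box GGGCGG, and the half-site TGACG, on either strand. The windows are chr14:88471397-88471646 (minus strand) for Pcdh20, chrX:133688994-133689243 (minus strand) for Pcdh19, chr14:84443313-84443562 (plus strand) for Pcdh17 and chr3:45378148-45378397 (plus strand) for Pcdh10.
Pcdh20: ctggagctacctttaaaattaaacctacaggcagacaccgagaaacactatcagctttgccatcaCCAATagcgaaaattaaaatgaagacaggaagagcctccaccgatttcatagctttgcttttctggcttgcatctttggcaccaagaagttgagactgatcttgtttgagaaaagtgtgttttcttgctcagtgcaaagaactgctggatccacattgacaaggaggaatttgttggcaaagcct
Pcdh19: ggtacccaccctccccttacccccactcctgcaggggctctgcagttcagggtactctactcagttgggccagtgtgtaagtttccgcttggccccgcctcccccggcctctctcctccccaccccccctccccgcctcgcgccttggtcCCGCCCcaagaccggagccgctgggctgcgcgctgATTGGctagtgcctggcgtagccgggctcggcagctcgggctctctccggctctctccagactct
Pcdh17: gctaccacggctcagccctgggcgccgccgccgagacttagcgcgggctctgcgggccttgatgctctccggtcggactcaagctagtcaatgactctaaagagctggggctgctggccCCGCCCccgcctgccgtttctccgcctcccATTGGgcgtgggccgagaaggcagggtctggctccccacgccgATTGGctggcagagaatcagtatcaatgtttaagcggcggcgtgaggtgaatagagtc
Pcdh10: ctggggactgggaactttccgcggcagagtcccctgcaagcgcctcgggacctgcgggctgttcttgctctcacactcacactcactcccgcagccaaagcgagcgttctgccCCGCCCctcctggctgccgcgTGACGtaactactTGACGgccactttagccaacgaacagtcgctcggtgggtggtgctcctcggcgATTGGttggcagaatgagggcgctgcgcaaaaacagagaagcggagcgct

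A RefSeq window was matched for 7 of the 8 members. The windows of Pcdh10, Pcdh17, Pcdh9 and Pcdh19 held 22, 21, 18 and 16 CG dinucleotides, against a median of 6 over 32851 windows of 27025 genes. Pcdh7 with 7 and Pcdh15 with 6 were near that median, and Pcdh20 had 3, with fewer in 29.0% of windows. CCAAT, searched on both strands, was found in 6 of the 7 windows, all but that of Pcdh7, and in 33.8% of all windows. Pcdh17 had 2 copies. GGGCGG was found in Pcdh10, Pcdh17 and Pcdh19 and in 32.7% of all windows, and TGACG in Pcdh9 (1 copy) and Pcdh10 (2 copies) and in 17.8% of all windows. TATAAA was found in Pcdh15 and in 12.4% of all windows. None of the 7 windows held the E-boxes CAGCTG (in 13.0% of all windows) or CATATG (in 3.46%), or the short runs ACAAAG (in 16.5%) or AACAAT (in 9.42%). These are matches of letters, not mapped binding sites. The annotated GENCODE start of Pcdh15 lies far upstream of its RefSeq window, and that of Pcdh7 inside it.

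All of the 8 genes but Pcdh1 had less RNA in Chd7iKO cells, and the fold change was largest for Pcdh20 and Pcdh19. Pcdh1 stood apart, with slightly more. In the test of all genes with edgeR's quasi-likelihood method, 7 of 8 members were called lower at an adjusted p under 0.05, beside 13.8% of all genes, and 0 were called higher, beside 15.8% of all genes. At an unadjusted p under 0.05, and with DESeq2 or limma voom, 1 member, Pcdh1, was higher. The median log2 fold change, Chd7iKO over Control, was -0.42 for the members and 0.001 for all genes. The 8 genes together made up 1300 to 1420 CPM in Chd7iKO libraries and 1500 to 1860 CPM in Control libraries. Every Chd7iKO library lay below every Control library for 4 of the 8, Pcdh7, Pcdh10, Pcdh19 and Pcdh20, as it did for 6.32% of all genes. No member had every Chd7iKO library above every Control, which held for 6.2% of all genes. The members were chosen on this comparison, so nothing is read from these shares. In bulk samples such as these, fewer cells of a type and less RNA per cell cannot be told apart.

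**Figure D1:**
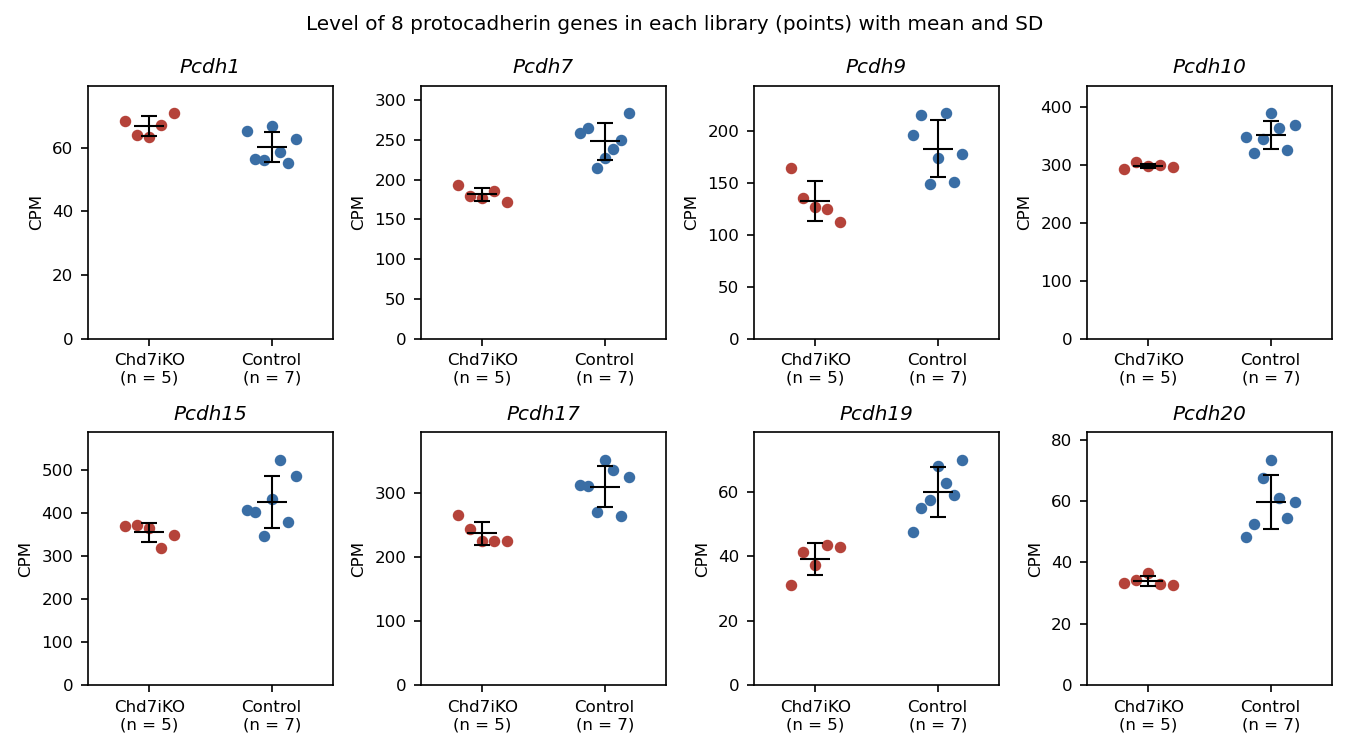
Level of each member in CPM (y axis, from 0) in each of the 5 Chd7iKO and 7 Control libraries (points), with the mean and SD as bars. The Chd7iKO points lie wholly below the Control points for Pcdh7, Pcdh10, Pcdh19 and Pcdh20, overlap them for Pcdh9, Pcdh15 and Pcdh17, and for Pcdh1 overlap the Control points, with 3 of the 5 above the highest Control at 66.8 CPM.

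Pcdh20 showed the largest fold change. It lies on chromosome 14 (88464743 to 88471396, minus strand, mm10), is found in newly formed olfactory neurons of mouse, and acts as a brake on Wnt signalling in human tumour cells. Its level was 33.2, 34.3, 36.6, 32.8 and 32.7 CPM in Chd7iKO libraries 1 to 5 and 48.2, 52.5, 67.4, 73.5, 61.0, 54.6 and 59.8 CPM in Controls 1 to 7. The 5 Chd7iKO libraries sat within 4 CPM of each other, below the lowest Control, Control 1, while the Controls spread widely. On the log2 scale the difference was -0.81 (SE 0.094, 95% interval -1.02 to -0.61), and the mean was 56.9% of that of the Controls. Of all genes, 0.737% had a lower fold change.

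Among the delta-2 genes, Pcdh19 had the largest fold change. Pcdh19 lies on the X chromosome (133582860 to 133688987, minus strand), works together with N-cadherin in adhesion in zebrafish, and its human counterpart is mutated in an epilepsy that affects mainly girls. It stood at 31.2, 41.2, 37.4, 43.4 and 42.7 CPM in Chd7iKO libraries and at 47.4, 55.1, 57.3, 68.0, 62.8, 59.1 and 70.0 CPM in Controls. Chd7iKO 1 was the lowest library, and the lowest Control, Control 1, was above all 5 Chd7iKO libraries. The log2 fold change was -0.61 (SE 0.10, 95% interval -0.84 to -0.39). Because Pcdh19 is X-linked, markers of sex were set beside it. Xist, the RNA of the inactive X, and the summed Y-linked genes were both present in all 5 Chd7iKO libraries (803 to 1420 CPM and 124 to 161 CPM) and in Controls 3, 4 and 7. Controls 1, 5 and 6 had Xist at 2590 to 3200 CPM with Y-linked genes at 0.112 CPM or less, and Control 2 had Y-linked genes at 315 CPM with Xist at 0.93 CPM. With the Y-linked level as a covariate the log2 fold change of Pcdh19 was -0.66.

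Pcdh17 is a delta-2 gene on chromosome 14 (84443563 to 84539002, plus strand), known in mouse for axon growth and for synaptic vesicle assembly in circuits of the basal ganglia. It had 266, 244, 225, 225 and 225 CPM in Chd7iKO libraries and 312, 310, 270, 352, 336, 264 and 325 CPM in Controls. Chd7iKO 1 was above Control 6, and the other 4 Chd7iKO libraries were below all Controls. Its difference on the log2 scale was -0.39 (SE 0.076, 95% interval -0.55 to -0.22).

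Pcdh10, a delta-2 gene on chromosome 3 (45378398 to 45435623, plus strand) with a role in the growth of striatal and thalamic axons in mouse, differed less but in every library. Its levels were 293, 304, 297, 299 and 296 CPM in Chd7iKO libraries and 347, 320, 344, 389, 364, 325 and 368 CPM in Controls. The Chd7iKO libraries formed a narrow band with a coefficient of variation of 1.35%, against 6.95% in Control libraries, and all were below the lowest Control. For Pcdh10 the log2 fold change came to -0.24 (SE 0.050, 95% interval -0.34 to -0.13), so that a modest shift separated the groups.

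Among the delta-1 genes, Pcdh7 and Pcdh9 were lower by a like amount. Pcdh7 lies on chromosome 5 (57717967 to 58133230, plus strand) and takes part in the outgrowth of retinal axons in Xenopus. It had 194, 179, 177, 186 and 172 CPM in Chd7iKO libraries and 259, 265, 215, 227, 239, 250 and 284 CPM in Controls. No Chd7iKO library reached the lowest Control, Control 3, and the log2 fold change was -0.45 (SE 0.065, 95% interval -0.59 to -0.31).

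Pcdh9, on chromosome 14 (93013410 to 93890679, minus strand) and linked in mouse to the sensory cortex and to social memory, was the most variable member in both groups, with a coefficient of variation of 14.6% in Chd7iKO and 15.1% in Control libraries. It had 164, 135, 127, 125 and 112 CPM in Chd7iKO libraries and 196, 215, 149, 174, 217, 151 and 178 CPM in Controls. Chd7iKO 1 exceeded Controls 3 and 6, the libraries with raised Esr1, and the other 4 Chd7iKO libraries were below all Controls. The log2 fold change was -0.46 (SE 0.11, 95% interval -0.70 to -0.22), and -0.56 without Controls 3 and 6.

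Pcdh1, a delta-1 gene on chromosome 18 that is best known in human as an adhesion protein of airway epithelium, did not share the direction of the others. It had 68.4, 64.1, 63.5, 67.0 and 70.9 CPM in Chd7iKO libraries and 65.1, 56.6, 56.2, 66.8, 58.5, 55.1 and 62.8 CPM in Controls. Chd7iKO 1, 4 and 5 were above the highest Control, and the groups overlapped. Its log2 fold change was 0.15 (SE 0.058, 95% interval 0.03 to 0.28), which was not called. The call turned to higher when Control 1 or Control 4 was left out, and under scaling by upper quartile or by library totals. Without Controls 3 and 6 the log2 fold change was 0.11, which was not called.

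Pcdh15, on chromosome 10 (73099342 to 74649737, plus strand), had 370, 372, 365, 318 and 349 CPM in Chd7iKO libraries and 407, 402, 346, 433, 524, 380 and 486 CPM in Controls. The groups overlapped through Control 3, which lay below 4 Chd7iKO libraries, and the Controls covered a wide range up to Control 5. The log2 fold change was -0.26 (SE 0.092, 95% interval -0.46 to -0.06). Its call was lost in 10 of the 12 fits that left out 1 library, all but those without Control 3 or Control 6, and over the 12 its log2 fold change ranged from -0.30 to -0.20. Without both of these Controls it was -0.34.

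**Figure D2:**
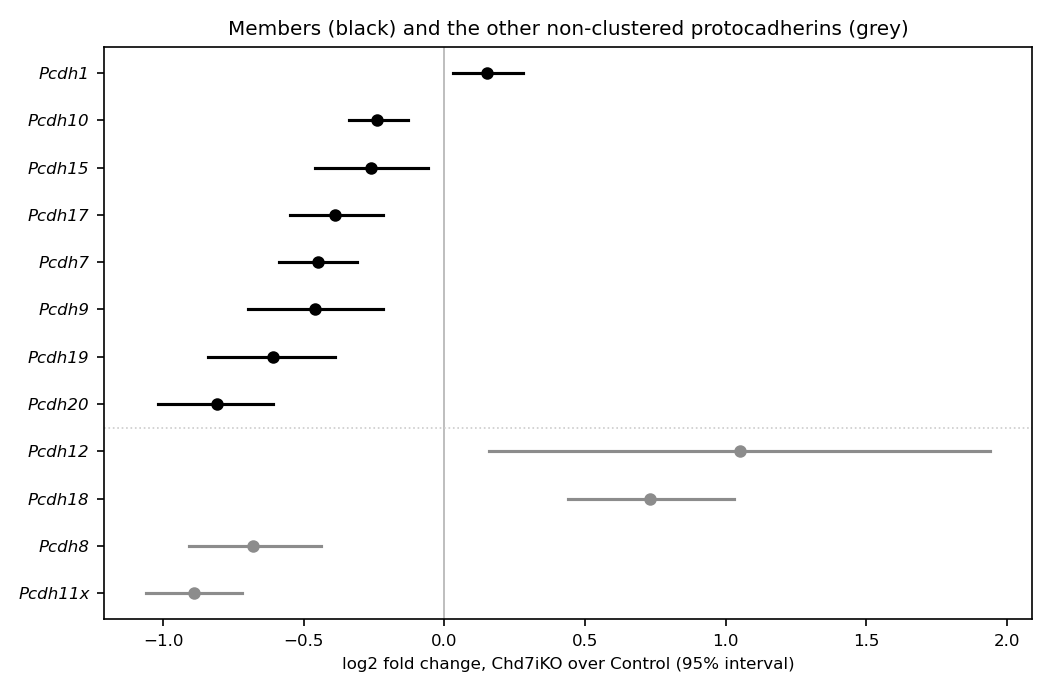
Log2 fold change, Chd7iKO over Control (x axis), with 95% interval, for the 8 members (black, upper rows) and the 4 other non-clustered protocadherins in the table (grey, lower rows). All members but Pcdh1 lie left of 0, from -0.24 for Pcdh10 to -0.81 for Pcdh20, Pcdh1 lies just right of 0, and the grey genes fall on both sides.

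Without Controls 3 and 6, the log2 fold changes of the other lower members were -0.80 for Pcdh20, -0.63 for Pcdh19, -0.48 for Pcdh7, -0.46 for Pcdh17 and -0.26 for Pcdh10. The same 7 members were called lower. In that fit 1989 of all 14107 genes were called lower and 2316 higher, against 1943 and 2224 with all libraries. Seen by library, the mean difference of the 8 members from the Control mean ranged on the log2 scale from -0.41 to -0.34 in the Chd7iKO libraries and from -0.12 to 0.11 in the Controls. The lowest Controls in this measure were Controls 3 and 6, each at -0.12, with 7 of their 8 members below the Control mean.

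**Figure D3:**
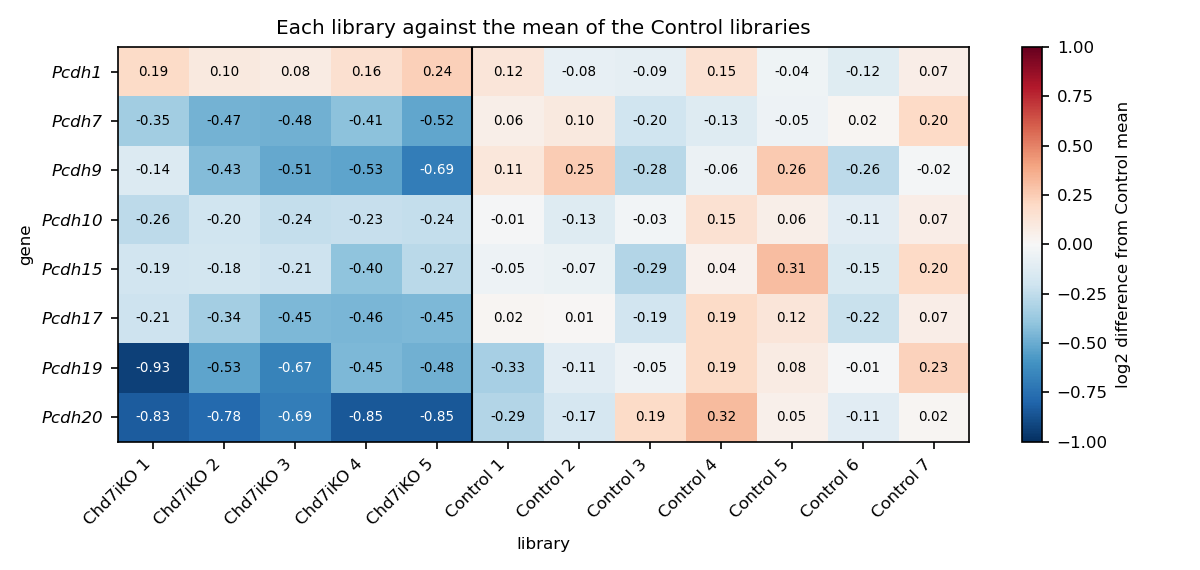
Difference of each library from the mean of the Control libraries on the log2 scale (colour and number), with genes in rows and libraries in columns, Chd7iKO left of the line. The 5 Chd7iKO columns are blue in every row but Pcdh1, and the deepest values, to -0.93, are in the rows of Pcdh19 and Pcdh20.

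Markers of other cells moved with the groups. Of 15 microglia markers 12 were called higher in Chd7iKO libraries (summed 658 to 853 CPM, against 331 to 749 CPM in Control). Of 12 endothelial markers 8 were called higher (290 to 715 CPM, against 172 to 425 CPM), and so were 10 of 12 mural and fibroblast markers (351 to 922 CPM, against 147 to 431 CPM). Astrocyte and neuron markers were mixed, with 1 of 12 and 1 of 14 called higher and 1 and 4 called lower. The mean log2 CPM of all these markers, taken as a score of other cells, was 4.98 to 5.68 in Chd7iKO and 4.48 to 5.28 in Control libraries. With this score as a covariate, Pcdh7, Pcdh19 and Pcdh20 were still called lower, at -0.50, -0.67 and -0.64. The calls of Pcdh9, Pcdh10, Pcdh15 and Pcdh17 were lost at -0.34, -0.21, -0.22 and -0.30. In that fit 611 of all genes were called lower and 675 higher, against 1943 and 2224 without the score. For Pcdh10 the log2 fold change was -0.24 without the score, and its SE rose from 0.050 to 0.066 with it. The part of other cells in the lost calls was not tested.

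Markers of the lineage itself were lower as well. Of 14 precursor markers 7 were called lower (median log2 fold change -0.24), and of 12 markers of committed precursors and newly formed oligodendrocytes 11 were called lower (median -0.54). Of 13 myelin markers 4 were called lower (median -0.17). The members were therefore also set against the mean log2 CPM of the 14 precursor markers, which was 9.01 (8.95 to 9.07) in Chd7iKO and 9.38 (9.24 to 9.47) in Control libraries. On this relative scale Pcdh20 stood at -3.93 (-3.97 to -3.88) in Chd7iKO and -3.49 (-3.75 to -3.24) in Control libraries, a difference of -0.43 with no overlap. Pcdh19 differed by -0.24, with 2 of 5 Chd7iKO libraries below the lowest Control. Pcdh7, Pcdh9 and Pcdh17 differed by -0.08, -0.09 and -0.02, each less than 1 SD of that gene in either group. Pcdh10 and Pcdh15 differed by 0.13 and 0.12, the reverse of their direction on the plain CPM scale, with groups that overlapped. Pcdh1 differed by 0.52, with every Chd7iKO library above every Control. Of the lower members, only Pcdh20 was thus below all Controls relative to these markers, while on the plain CPM scale 4 were.

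**Figure D4:**
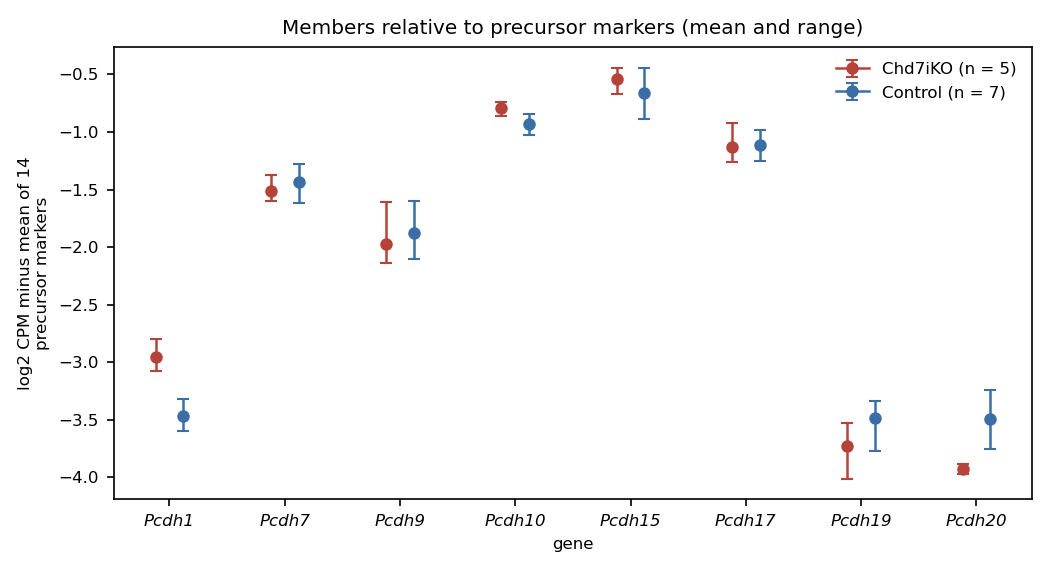
Log2 CPM of each member minus the mean log2 CPM of 14 precursor markers (y axis), as mean (point) and range (bar) over 5 Chd7iKO and 7 Control libraries. The ranges of the groups are apart for Pcdh20, where Chd7iKO is lower, and for Pcdh1, where it is higher, and they meet or overlap for the other members.

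Levels between members were compared per kilobase of annotated exon (GENCODE M21). This length joins all annotated exons of a gene, 23773 bases for Pcdh15 and 6783 for Pcdh9. Which transcripts these cells make was not determined, so the order between members depends on the annotation. In plain CPM Pcdh15 was the highest member, at 425 in Control libraries against 183 for Pcdh9. In Chd7iKO libraries Pcdh9 was highest at 19.6 ± 2.87 and Pcdh19 lowest at 3.75 ± 0.481 CPM per kilobase (SD, n = 5). Pcdh20 at 6.17 ± 0.299 was below Pcdh1 at 7.59 ± 0.349 there, with ranges of 5.95 to 6.67 and 7.22 to 8.06 that did not meet. In Control libraries the order was Pcdh9 at 27.0 ± 4.08 CPM per kilobase, Pcdh17 at 23.9 ± 2.52, Pcdh7 at 23.4 ± 2.23, Pcdh10 at 22.1 ± 1.54, Pcdh15 at 17.9 ± 2.59, Pcdh20 at 10.9 ± 1.6, Pcdh1 at 6.84 ± 0.531 and Pcdh19 at 5.73 ± 0.743 (SD, n = 7). The Control ranges of Pcdh9, Pcdh17, Pcdh7 and Pcdh10 overlapped, and so did those of Pcdh15 and Pcdh10 and of Pcdh1 and Pcdh19. Pcdh20 (8.78 to 13.4) was apart from its neighbours on either side. It stood above Pcdh1 in Control libraries, the reverse of the order in Chd7iKO libraries. Set among all genes with a length, Pcdh9 in Control libraries was above 86.0% of them and Pcdh19 above 45.9%.

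**Figure D5:**
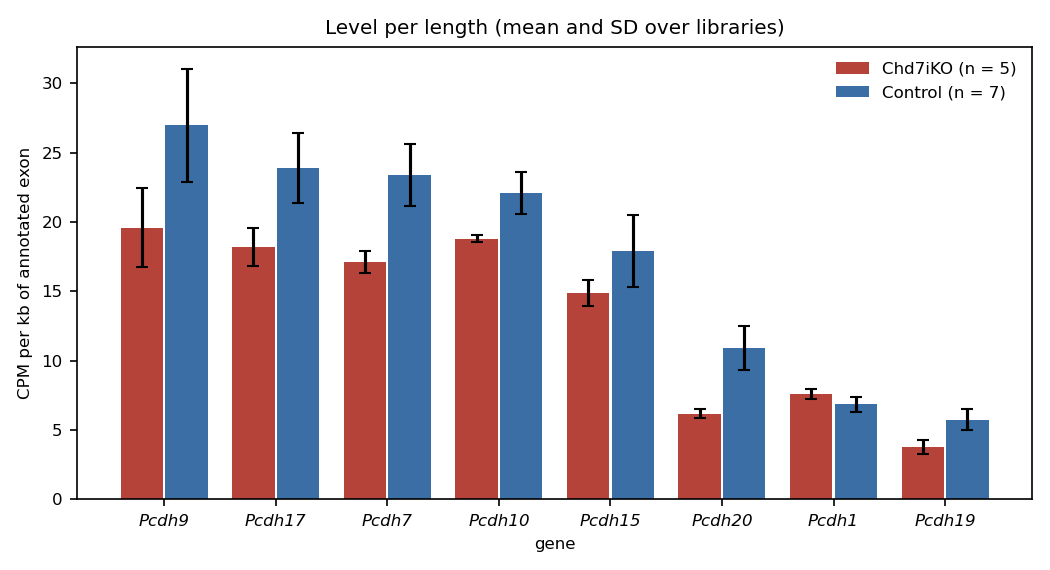
Level of each member in CPM per kilobase of annotated exon (y axis, from 0), as mean and SD over 5 Chd7iKO (left bar) and 7 Control libraries (right bar), in the order of the Control means. Pcdh9, Pcdh17, Pcdh7 and Pcdh10 form the upper group in both, and Pcdh20 changes places with Pcdh1 between them.

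Within the groups, the members did not vary as one. Over the 12 libraries, after the group means were taken off, Pearson's r of log2 CPM ran from -0.62 for Pcdh7 and Pcdh20 to 0.74 for Pcdh15 and Pcdh17 over the 28 pairs of members, with a median of 0.25. Pcdh9 and Pcdh17 had an r of 0.73 and Pcdh10 and Pcdh20 of 0.65, while Pcdh9 and Pcdh10 had an r of 0.01. The points share libraries and depth, and the values are given as a description. Without Controls 3 and 6 the median was 0.18.

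Over 10253 genes that averaged 10 CPM or more, those whose within-group differences were most like those of 7 members were found by the same r over 12 libraries. These are the highest of 10253 values of r over only 12 libraries, so that the choice itself raises them. They are given as a description, and no shared regulation is read from them. For Pcdh20 these were Srrm3 (r = 0.96), Naa35 and Rgcc, and for Pcdh19 Zeb2 (0.959), Cars2 and Mettl4. For Pcdh17 they were Stxbp5l (0.945), Zfp318 and Pclo, and for Pcdh10 Nbr1 (0.956), Rnf214 and Dpp9. For Pcdh9 they were Jmjd1c (0.959), Dcc and Usp32, for Pcdh7 Tmem108 (0.943), Bend3 and St18, and for Pcdh15 Dock10 (0.943), Unc80 and Orc3. Of the first gene named for each member, Srrm3 (-0.57, edgeR adjusted p = 0.00311) and Zeb2 (-0.39, 0.0128) were also lower in Chd7iKO libraries. So were Stxbp5l (-0.52, 0.000516), Nbr1 (-0.21, 0.00279) and Jmjd1c (-0.40, 0.00866). Tmem108 (-0.181, 0.143) and Dock10 (-0.015, 0.875) were not called. Of the other genes named, Rgcc (-0.665, 0.00194), Dcc (-0.425, 0.00999) and St18 (-0.445, 0.0331) were called lower. Naa35, Cars2, Mettl4, Zfp318, Pclo, Rnf214, Dpp9, Usp32, Bend3, Unc80 and Orc3 were not called, with log2 fold changes from -0.203 to 0.117. Of all genes, 13.8% were called lower.

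Pcdh17, Pcdh20 and Pcdh9 lie on chromosome 14 with Pcdh8, a delta-2 gene that is induced by neuronal activity, within 14123905 bases (79766775 to 93890679). Of the table's genes with 1 GENCODE match, 8 lie wholly in this stretch, and all 4 protocadherins were called lower. Of the 4 others, looked up after the members' values were seen, 1 was called lower, 1 higher and 2 neither. The lower one was 9630013A20Rik, which RefSeq also lists as lncOL1, a long noncoding RNA of maturing oligodendrocytes in mouse (log2 fold change -0.71, SE 0.12, edgeR adjusted p = 0.00116). It lies within the span of Pcdh17 on the opposite strand, with no exon in common. The higher one was the formin gene Diaph3 (0.73, SE 0.16, adjusted p = 0.00504).

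Members also differ in the length of DNA they span. Pcdh15 spans 1550396 bases, Pcdh9 877270 and Pcdh7 415264, while Pcdh20 spans 6654. Of the table's genes with 1 GENCODE match, 314 span at least 400 kb, and 36.3% of these were called lower and 11.1% higher. Of the 11478 matched genes under 100 kb, 12.4% were called lower and 16.2% higher. Pcdh7, Pcdh9 and Pcdh15 are among those of at least 400 kb, and Pcdh1, Pcdh10, Pcdh17 and Pcdh20 among those under 100 kb. The part of span in the members' differences was not tested.

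Lists of genes bound by Chd7 or Chd8 came with the authors' deposited files, and how sites were assigned to genes is not stated in the sources used here. The list of genes bound by Chd7 in oligodendrocyte precursors holds 7 of the 8 members, all but Pcdh19, and 39.4% of the genes in the table. Pcdh7, Pcdh9, Pcdh10, Pcdh15 and Pcdh17 are in the list of genes bound in both precursors and oligodendrocytes, which holds 12% of table genes. Of the genes in that list, 23.7% were called lower and 12.9% higher here. Pcdh1 and Pcdh20 are in the list bound in precursors and not in oligodendrocytes, with 27.3% of table genes, of which 12.8% were called lower.

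The same 7 members are in the list of genes shared by Chd7 and Chd8, with 34.8% of table genes, and Pcdh19 is in the list unique to Chd8, with 32.0%, as are Pcdh8 and Pcdh11x. Pcdh7, Pcdh9, Pcdh17 and Pcdh20 are in the authors' list of genes both bound by Chd7 and down-regulated, which holds 4.61% of table genes and uses these same libraries. The smallest absolute log2 fold change among that list's genes in the authors' deposited table is 0.264, and Pcdh15 at -0.261 and Pcdh10 at -0.237 in the authors' deposited table fall short of it. Pcdh1 is listed as bound by Chd7 in precursors and was not called here.

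The table held 4 further non-clustered protocadherins, and they moved in both directions. Pcdh11x, the X-linked delta-1 gene, had the largest decrease of the 12, at 133 ± 5.58 CPM in Chd7iKO and 247 ± 29.5 CPM in Control libraries (log2 fold change -0.89, SE 0.079, edgeR adjusted p = 1.57e-05), with all 5 Chd7iKO libraries below all Controls. Pcdh8 fell too, to 13.1 ± 1.68 CPM in Chd7iKO, against 21.0 ± 2.80 CPM in Control libraries (-0.68, SE 0.11, adjusted p = 0.000673). Pcdh18, a delta-2 gene whose protein binds the adaptor Dab1, rose to 13.5 ± 1.39 CPM in Chd7iKO, against 8.12 ± 1.70 CPM in Control libraries (0.73, SE 0.14, adjusted p = 0.00189), with all 5 above all Controls. Pcdh12, a protein of endothelial cells, had 4.09 ± 1.83 CPM in Chd7iKO and 1.97 ± 1.26 CPM in Control libraries (1.05, SE 0.41, adjusted p = 0.0712). With the score of other cells as a covariate Pcdh12 was at 0.01 and Pcdh18 at 0.41, which was still called.

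Of the 57 clustered protocadherins, 39 were called lower and 1 higher, and their median log2 fold change was -0.39. With the score of other cells as a covariate 11 were lower and 1 higher. The higher one was Pcdhgc5 (0.71, adjusted p = 0.000168). Estimated counts can be shared between the near-identical genes of a cluster, so that single values there are uncertain.

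Partners of the members in adhesion and signalling were mixed. Of 10 genes of the WAVE complex and its activator, the route by which delta-2 tails act on actin, 5 were called lower (median -0.14), and 4 with the score of other cells as a covariate. None was higher with edgeR, DESeq2 or limma voom, nor at an unadjusted p under 0.05. Wasf1, the brain form of WAVE, had 181 ± 14.4 CPM in Chd7iKO and 272 ± 23.5 CPM in Control libraries (-0.59, SE 0.069, edgeR adjusted p = 9.24e-05). Nckap1 (-0.28, adjusted p = 0.000832), Cyfip2 (-0.44, 0.00144), both scaffold subunits, and Abi1 (-0.19, 0.00246) were lower as well. Of 4 genes of protein phosphatase 1 and Set, the partners of the delta-1 tail, 0 were called in either direction by edgeR's test or DESeq2. At an unadjusted p under 0.05, and with limma voom, 1 was lower and 1 higher, and their log2 fold changes ran from -0.17 to 0.16.

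Of 18 classical and related cadherins in the table, 4 were called higher and 5 lower (median -0.10), and 1 and 2 with the score of other cells as a covariate. Cdh4, R-cadherin, rose to 137 ± 7.97 CPM in Chd7iKO, against 79.8 ± 5.98 CPM in Control libraries (0.77, SE 0.057, edgeR adjusted p = 5.81e-06). Cdh13, which has no intracellular tail, fell to 205 ± 13.1 CPM, against 284 ± 17.0 CPM in Control libraries (-0.47, adjusted p = 8.15e-05). Cdh7 (-1.20, 0.00155) and Cdh18 (-0.88, 0.00445) were lower from low levels. Cdh2, N-cadherin, the partner of Pcdh19 named above, was at 266 ± 9.89 CPM in Chd7iKO and 292 ± 6.62 CPM in Control libraries (-0.13, adjusted p = 0.0163).

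Of 8 catenins, which link classical cadherins to the cytoskeleton, 5 were called higher and 2 lower (median 0.15), and 1 and 0 with that score as a covariate. Among them were Ctnnd2 (0.20, adjusted p = 0.00209) and Ctnnb1, beta-catenin (0.18, 0.0158), higher, and Arvcf (-0.47, 0.00663) and Ctnna2 (-0.23, 0.0242), lower. Of 12 large and atypical cadherins 1 was called higher, Fat2 (1.32, adjusted p = 0.018), from a low level. Fat2 had 2.76 ± 1.43 CPM in Chd7iKO and 1.11 ± 0.41 CPM in Control libraries. Called lower were 2, the calsyntenins Clstn3 (-0.44, 0.000493) and Clstn1 (-0.29, 0.0215). With the score of other cells as a covariate 0 were called higher and 1 lower. Of 6 partners of Pcdh15 in the tip link and its anchor, 3 were called higher and 1 lower, and 1 and 0 with the score as a covariate. Cdh23, which binds Pcdh15 in the tip link, was at 1.71 ± 0.483 CPM in Chd7iKO and 0.830 ± 0.275 CPM in Control libraries (1.04, SE 0.25, adjusted p = 0.00767). Whrn (0.83, 0.00206) and Myo7a (0.88, 0.0262) were higher, and Tmie, a subunit of the transduction channel complex, was lower (-0.57, 0.00527). Whrn, the most abundant of these 4, had 20.1 ± 4.25 CPM in Chd7iKO and 11.3 ± 2.53 CPM in Control libraries.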

How the data were processed

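RNA of O4+ cells was sequenced from 5 Chd7iKO and 7 Control samples with a stranded mRNA kit, per the labels' protocols. The authors deposited unscaled estimated counts of 14107 genes, with their own log2 fold changes and p-values in the same table, and lists of bound genes with no values. Per the submitters' processing notes, the tools named are edgeR, featureCounts, TopHat2 and Bowtie and the build is mm10, with no role or version stated, and no annotation is named in the sources used here. Of all values 1.76% (2973) were not whole, although those of the 8 members were, and the lowest mean count of any gene was 20.8.

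Counts were rounded and tested with edgeR 4.0.16 (R 4.3.3): TMM scaling, its expression filter (0 genes removed), the two-sided quasi-likelihood F-test, Benjamini-Hochberg adjustment over 14107 genes and a threshold of 0.05. SE and intervals come from that fit. The biological coefficient of variation was 14.7%. CPM were computed here after TMM scaling, and log2 CPM used a prior count of 2. Of 31 pairs of replicates none agreed within sampling noise (lowest chi-square per degree of freedom 9.14). Exon lengths came from GENCODE M21, for 13628 genes with 1 match. The code was tested on simulated data.

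Members, gene lists and alternatives were chosen with earlier results of these data known. Named genes are the members, Chd7 and Cdh2, up to 4 called genes per cadherin or partner list by smallest adjusted p, the 3 genes most like each member (not reported here for Pcdh1), and Xist with the Y-linked genes. Esr1, the genes between the protocadherins of chromosome 14, Pcdh12 and Pcdhgc5 were named after their values were seen. Alternatives were other scalings, another prior count and no filter, DESeq2 1.42.0, limma 3.58.1 voom, the replicate block, a score of other cell types, Y-linked genes, and leaving out libraries.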

Additional observations from a re-analysis of the deposited data

Results flagged for a closer look

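In Chd7iKO 4 the level of Pcdh11x was 143 CPM, while the other 4 Chd7iKO libraries lay between 130 and 132 CPM. The gap to the nearest of them was 0.872 of the group's whole range, above Dixon's critical value of 0.71 for 5 samples. All 5 libraries were still below the Controls. Of 24 groups checked over the 12 non-clustered protocadherins this was the only one, and chance flags about 1 in 20.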

How the results depend on the processing

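Pcdh7, Pcdh19 and Pcdh20 kept their call and direction in every alternative run, with log2 fold changes of -0.50 to -0.40, -0.71 to -0.54 and -0.85 to -0.64. No member's fold change turned round in these runs. The scale relative to the precursor markers was not among them. On that scale Pcdh10 and Pcdh15 did turn round, to 0.13 and 0.12, with groups that overlapped. Of all genes, 1943 were called lower and 2224 higher. With limma voom these counts were 3070 and 3392, and with the score of other cells as a covariate 611 and 675. The fit without Chd7iKO 4 and 5 gave 839 and 908. Leaving out 1 library at a time gave 1293 to 2126 lower and 1397 to 2486 higher, with the lowest of both counts without Chd7iKO 5. Members called lower were 3 with the covariate, 5 without Chd7iKO 4 and 5 (Pcdh9 at -0.36 and Pcdh15 at -0.20 were lost) and 6 to 7 with 1 library left out. Members called higher were 1, Pcdh1, under upper-quartile scaling, library totals, DESeq2's Wald test and limma voom, and 0 to 1 with 1 library left out. The call of Pcdh15 was lost in 15 of 22 alternatives. Scaling moved the median of all genes by at most 0.033 on the log2 scale. The cause of these changes was not tested.

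Replicate numbers are shared by the groups' labels, and the labels do not tie a number to a litter. Same-numbered libraries deviated together in 1 of 5 pairs (r = 0.376, against -0.12, 0.084, -0.127 and -0.177 in the others), so that the numbers were not taken as pairs. With the replicate number as a block, 2272 genes were called lower and 2508 higher, and 6 members were called lower and 0 higher, with Pcdh15 at -0.24. Pcdh12 was called in 6 alternatives, among them DESeq2, limma voom, the block and the fit without Controls 3 and 6, with 1.05, 1.38, 1.53 and 1.28. The members' counts, at least 1014 per library, leave little counting error, and the comparison rests on 5 and 7 libraries.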
